A study of Mus musculus with 64 samples.

Results

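Mstn, Rhoj, Ffar4, Pdzrn3, Mmp9, Adgrg2, Grk3 and Mtss1 are 8 of the 55809 gene names counted in all 64 mouse RNA-seq libraries of the series, and none of them is a classical regulatory T (Treg) cell marker. They were picked from measured values, namely large or state-dependent differences between plusFoxp3 and minusFoxp3 cells at day 28. The day 28 differences are therefore given as a description without a test, and tests were run on the other days and groups. The day 28 libraries stayed in the main fits, so they entered the spread that those tests used. Of the 8 genes, 7 were lower and Mmp9 was higher in active plusFoxp3 cells at day 28. Averaged over days 3, 7 and 14, which played no part in the choice, Mstn, Ffar4, Pdzrn3, Grk3 and Mtss1 were lower and Mmp9 was higher in active plusFoxp3 cells. On day 3 alone 0 of the 8 genes passed the test. Both untreated active plusFoxp3 libraries already lay below the minusFoxp3 ones for Ffar4, Mmp9, Adgrg2 and Grk3. Of all genes tested, 30.3% did not overlap between these untreated groups. Active GFP Treg cells held 7 of the genes below the untreated cells without functional Foxp3, and Mmp9 above them. Mstn, Ffar4 and Rhoj were not that low in active Treg cells of a separate degron experiment, whose reads were counted with other settings.

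Foxp3 is the X-linked forkhead transcription factor of Treg cells, and it works both by binding DNA itself and through the many factors that it meets or controls. The 8 genes have different jobs. Mstn (myostatin) and Mmp9 (matrix metalloproteinase 9) are secreted, the former a TGF-beta family ligand best known for limiting muscle growth and the latter a gelatinase that cuts extracellular matrix. Ffar4 is a G protein-coupled receptor for long-chain fatty acids, Adgrg2 is an adhesion G protein-coupled receptor, and Grk3 is a kinase that phosphorylates activated G protein-coupled receptors. Rhoj is a small GTPase of the Cdc42 group, Mtss1 is a membrane-curving protein that binds actin, and Pdzrn3 is a ubiquitin ligase with PDZ domains.

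RefSeq promoter windows, which run from 250 bases before to 50 bases after the annotated start, were found for 5 of the 8 genes (Mstn, Pdzrn3, Rhoj, Ffar4 and Adgrg2). The letters of 3 motifs were searched on both strands in all 32851 windows, namely the forkhead core TGTTTAC, the AP-1 motif TGANTCA and the TATA motif TATAAA. The forkhead core was in 3.65% of the windows and in none of these 5, the AP-1 motif was in 7.81% and among these 5 only in Mstn, and the TATA motif was in 13.6% and among these 5 only in Mstn. The windows of Mstn, Ffar4 and Pdzrn3 are printed, because these genes had the largest ratios of untreated minusFoxp3 to GFP Treg cells in the active state. Matches are in capitals, on the plus strand of the gene, and positions are counted from the start. The Mstn window (GRCm38.p6, chr1:53061390-53061689, plus strand) held the AP-1 letters at -170 and the TATA letters at -29, and its GC content was 41.3% against a median of 52.7% over all windows. The Ffar4 window (GRCm38.p6, chr19:38096829-38097128, plus strand) and the Pdzrn3 window (GRCm38.p6, chr6:101377848-101378147, minus strand) had GC contents of 63.7% and 68.7% and none of the letters searched.
Mstn: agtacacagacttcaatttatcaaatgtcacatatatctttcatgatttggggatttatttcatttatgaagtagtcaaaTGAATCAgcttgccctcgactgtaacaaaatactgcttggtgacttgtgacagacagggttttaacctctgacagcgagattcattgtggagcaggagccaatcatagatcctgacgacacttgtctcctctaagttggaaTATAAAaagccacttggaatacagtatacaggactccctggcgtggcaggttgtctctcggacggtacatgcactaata
Ffar4: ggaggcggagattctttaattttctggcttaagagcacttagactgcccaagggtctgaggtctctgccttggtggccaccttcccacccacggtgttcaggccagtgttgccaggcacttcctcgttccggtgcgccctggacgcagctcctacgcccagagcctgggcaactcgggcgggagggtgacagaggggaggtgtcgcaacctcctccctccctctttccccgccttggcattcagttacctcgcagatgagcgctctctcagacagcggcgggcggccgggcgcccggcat
Pdzrn3: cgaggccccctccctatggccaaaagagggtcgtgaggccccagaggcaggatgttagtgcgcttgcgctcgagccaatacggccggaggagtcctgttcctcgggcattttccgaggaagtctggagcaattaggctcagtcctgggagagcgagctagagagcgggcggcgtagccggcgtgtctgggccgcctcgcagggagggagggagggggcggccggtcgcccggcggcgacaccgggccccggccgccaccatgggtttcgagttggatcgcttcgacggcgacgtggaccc

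The main data come from 44 libraries of a reversible-allele experiment in heterozygous Foxp3-LSL female mice, whose loxP-flanked Thy1.1-STOP cassette keeps Foxp3 protein off while the locus is transcribed. Cells labelled minusFoxp3 (genotype Foxp3-LSLCD4-WT, no Cre) kept the cassette and were sorted as Thy1.1-positive Treg wannabe cells. Cells labelled plusFoxp3 (genotype Foxp3-LSLCD4-CreERT2, with a Cre driven by Cd4) lost it after 1 dose of 4-hydroxytamoxifen (4-OHT). On the days after the dose they were sorted as GFP-positive cells, and the study's text gives no gate for untreated ones. Both were taken as resting and as active cells of spleen and lymph nodes, untreated (day 0) and at days 3, 7, 14 and 28 after the dose, with 2 libraries in each group. At day 0 the plusFoxp3 mice were untreated, so that label names the genotype and not restored Foxp3. On treated days the arms came from different mice and differed in Cre genotype and sorted reporter as well as in Foxp3. Effects of these cannot be told apart from those of Foxp3 there. GFP Treg cells (genotype Foxp3GFP, untreated, 2 resting and 2 active libraries) came from other mice, which never lacked Foxp3. The heterozygous hosts also held Treg cells with the normal allele.

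The other 20 libraries come from a degron experiment, in which all mice carried a Foxp3-AID allele that also drives iCre and ZsGreen, and received 5-ph-IAA for 7 days. TIR1 mice can degrade the tagged Foxp3 protein after the Foxp3-driven Cre switches on a ROSA26 TIR1 cassette, and ROSA26-WT mice cannot. There were 3 libraries of each genotype for CD73-negative thymic Treg cells and for active Treg cells of spleen and lymph nodes of adult females. There were 4 libraries of each genotype for Treg cells of infant mice. The study describes the adult females as heterozygous Foxp3-AID/WT and the infants as hemizygous Foxp3-AID/y. Per the study's methods, degron mice were used as newborns or as young adults some weeks old. The study calls the libraries of the reversible-allele experiment and of the adult thymic and active degron cells independent biological replicates. The labels do not say whether each library is 1 animal, so p-values measure the spread between these libraries.

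Totals ran from 35097257 to 57419138 assigned read pairs per library in the reversible-allele experiment and from 27753211 to 55801009 in the degron experiment. Levels are given in CPM, which are read-pair counts scaled to the library total, and 3 counts, the limit that a count of 0 allows, came to 0.0522 to 0.108 CPM by library (counting error only). Foxp3 mRNA, which checks the labels, was 425.67 to 581.76 CPM in active plusFoxp3 cells at days 3 to 14 and 46.2 to 65.3 CPM in active minusFoxp3 cells at days 0 to 14, and 448.43 to 613.86 CPM against 47.3 to 81.5 CPM in resting cells. Untreated plusFoxp3 cells held 50.7 and 55.6 CPM in the active state and 80.7 and 70.5 CPM in the resting state, within the range of minusFoxp3 cells of the same state. Of the markers of resting cells, Ccr7, a chemokine receptor for homing to lymph nodes, lay at 625 to 1513 CPM in the resting and at 133 to 506 CPM in the active libraries, and Bach2, a transcriptional repressor of effector genes, at 67.0 to 125 CPM and at 17.5 to 50.6 CPM. Tcf7 overlapped between the states, at 443 to 1887 CPM in resting and 329 to 1148 CPM in active libraries. The 5 T cell markers were present in all. In bulk samples, fewer cells that make a transcript and less of it in each cell cannot be told apart.

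**Figure D1:**
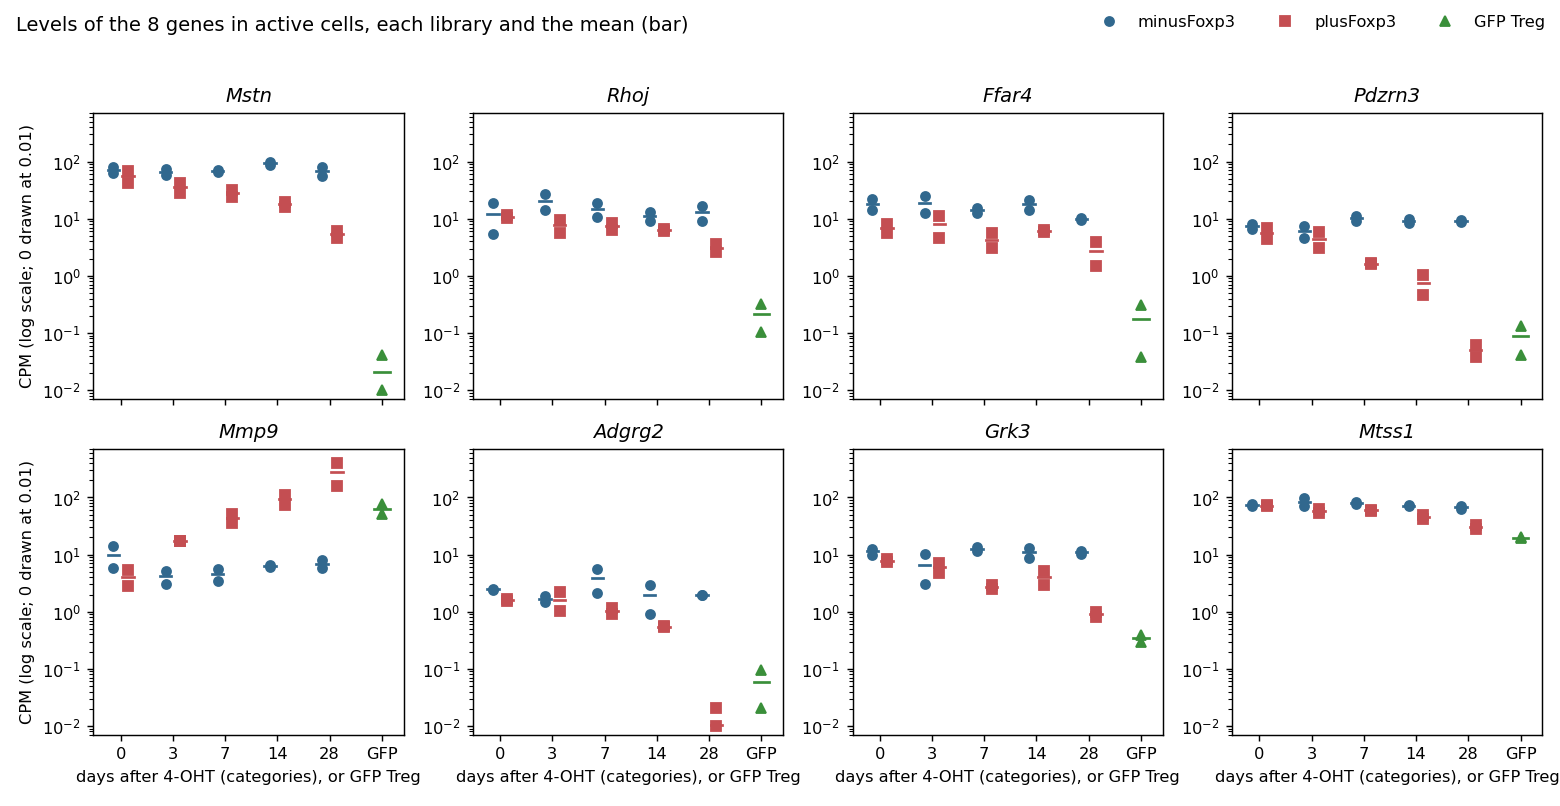
CPM on a log axis for each active library of the reversible-allele experiment, by day after 4-OHT and in GFP Treg cells, 1 panel per gene, with points for single libraries, bars for means and 0 drawn at 0.01. At day 14 plusFoxp3 points lie below minusFoxp3 points for 7 genes, as for Mstn at 19.9 and 15.8 against 98.9 and 86.2, and above them for Mmp9 at 74.8 and 112.

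Mstn (chromosome 1, 53100799 to 53107238, GRCm39) was lower in active cells that had regained Foxp3 than in those that had not, on every treated day. Active minusFoxp3 libraries held 62.5 and 80.9 CPM at day 0, 73.2 and 57.4 at day 3, 70.1 and 66.4 at day 7, and 98.9 and 86.2 at day 14. Active plusFoxp3 libraries held 42.4 and 68.1 CPM at day 0, 42.0 and 28.7 at day 3, 32.0 and 24.3 at day 7, and 19.9 and 15.8 at day 14. The 2 groups overlapped when untreated and did not overlap on any treated day, and the mean in plusFoxp3 cells was 54.2%, 41.3% and 19.2% of that in minusFoxp3 cells at days 3, 7 and 14. At day 28, which chose the gene, plusFoxp3 libraries held 4.63 and 6.16 CPM against 55.3 and 78.9. Averaged over days 3, 7 and 14, the difference was -1.48 on the log2 scale (SE 0.16, edgeR quasi-likelihood adjusted p = 4.8e-05). Active GFP Treg cells held 0 and 0.0416 CPM, which is 2 counts in both libraries together.

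In resting cells Mstn was lower to begin with and varied more between libraries. Resting minusFoxp3 libraries at days 0 to 14 ranged from 6.39 to 44.7 CPM with a median of 17.6 (n = 8), and resting plusFoxp3 libraries at days 3 to 14 ranged from 1.80 to 9.38 CPM with a median of 4.40 (n = 6). The untreated resting plusFoxp3 libraries stood far apart from each other at 4.44 and 31.0 CPM. The mean difference over days 3, 7 and 14 was -1.90 (SE 0.45, edgeR adjusted p = 0.037), and it passed the threshold in 2 of 12 fits that each left out 1 library (adjusted p from 0.032 to 0.12). At day 28, plusFoxp3 libraries held 1.85 and 1.26 CPM against 37.9 and 25.1 CPM. Both resting GFP Treg libraries had 0 counts, at least 537-fold lower than untreated minusFoxp3 cells when set to 3 counts over the group. The 5 muscle markers summed to 0.835 to 2.38 CPM over the 44 libraries, mostly Acta1, and Myod1 and Myog reached at most 0.304 and 0.108 CPM.

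Mmp9 (chromosome 2, 164782700 to 164797770, GRCm39) was the only gene of the 8 that passed as higher with Foxp3 in the average over days 3, 7 and 14, and it did so in both states. Active minusFoxp3 libraries held 5.73 and 14.1 CPM at day 0, 5.20 and 3.11 at day 3, 3.48 and 5.48 at day 7, and 6.15 and 6.60 at day 14. Active plusFoxp3 libraries held 5.34 and 2.81 CPM at day 0, 17.5 and 17.5 at day 3, 50.8 and 35.3 at day 7, and 74.8 and 112 at day 14. Untreated plusFoxp3 libraries were both below the untreated minusFoxp3 libraries, and on every treated day the order was the opposite, with no overlap. The mean in plusFoxp3 cells was 4.21-fold, 9.60-fold and 14.6-fold that in minusFoxp3 cells at days 3, 7 and 14. At day 28 the 2 plusFoxp3 libraries held 397.35 and 157 CPM, so that they differed from each other by more than the whole minusFoxp3 level of 8.16 and 5.72 CPM. The mean difference over days 3, 7 and 14 was 3.11 (SE 0.29, edgeR adjusted p = 5.9e-06).

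Resting cells had much less Mmp9, with the same direction. Resting minusFoxp3 libraries at days 0 to 14 ranged from 0 to 0.216 CPM (median 0.0443, n = 8), near the level of 3 counts, and resting plusFoxp3 libraries at days 3 to 14 ranged from 0.389 to 2.05 CPM (median 1.25, n = 6). The mean difference was 4.05 (SE 0.59, edgeR adjusted p = 0.0012). Untreated resting plusFoxp3 libraries held 0.251 and 0.141 CPM against 0.0206 and 0.0431 in minusFoxp3 cells. At day 28 the 2 resting plusFoxp3 libraries held 11.8 and 1.74 CPM, and the summed level of the 5 active-state markers was also higher in the former, at 957.35 against 431.46 CPM. The part of that in the Mmp9 value was not tested. Neutrophils are a major source of Mmp9, and the 9 neutrophil markers summed to 1.31 to 2.80 CPM in active plusFoxp3 cells at days 3 to 14 and to 1.33 to 2.64 CPM in active minusFoxp3 cells at days 0 to 14, with Ly6g at 0.0197 CPM or less in active cells. The same sums were 1.86 to 2.84 CPM and 1.14 to 3.96 CPM in resting cells.

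Ffar4 (chromosome 19, 38085519 to 38102711, GRCm39), the fatty acid receptor, was already lower in active plusFoxp3 mice before treatment. Untreated active plusFoxp3 libraries held 7.99 and 5.67 CPM against 14.1 and 21.7 CPM, a difference of -1.38 (SE 0.54) that did not pass the threshold (edgeR adjusted p = 1.0). Active plusFoxp3 libraries then held 11.2 and 4.64 CPM at day 3, 3.03 and 5.52 at day 7, and 6.32 and 5.94 at day 14, against 24.7 and 12.6, 15.2 and 12.6, and 21.4 and 14.3 in minusFoxp3 cells. The groups did not overlap at any day, day 0 included, and the level in plusFoxp3 cells at day 14 was close to the untreated one. Averaged over days 3, 7 and 14 the difference was -1.46 (SE 0.31, edgeR adjusted p = 0.016), and 4 of 12 fits that each left out 1 library lost the call (adjusted p from 0.015 to 0.072). Day 28 values were 1.48 and 3.93 against 10.3 and 9.39 CPM. Active GFP Treg cells held 0.038 and 0.312 CPM.

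In resting cells Ffar4 ranged from 1.46 to 6.58 CPM in minusFoxp3 libraries at days 0 to 14 (median 2.25, n = 8) and from 0.290 to 2.79 CPM in plusFoxp3 libraries at days 3 to 14 (median 1.71, n = 6). These ranges overlapped, and the mean difference of -0.79 (SE 0.39) did not pass the threshold (edgeR adjusted p = 0.35). Day 28 values were 0.352 and 0.0827 against 6.05 and 4.32 CPM. Resting GFP Treg cells held 0 and 0.0194 CPM, 1 count in all, and the ratio of untreated minusFoxp3 cells to them was 261, with a 95% exact Poisson interval of 46.8 to 10309 that covers counting error only.

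Adgrg2 (chromosome X, 159173686 to 159281066, GRCm39) was measurable in active cells. Active minusFoxp3 libraries held 2.41 and 2.53 CPM at day 0, 1.48 and 1.89 at day 3, 5.49 and 2.15 at day 7, and 2.99 and 0.927 at day 14, against 1.70 and 1.56, 1.01 and 2.18, 1.18 and 0.895, and 0.539 and 0.554 in plusFoxp3 cells. The groups overlapped at day 3 and did not overlap at days 0, 7 and 14. The mean difference over days 3, 7 and 14 was -1.22 (SE 0.35, edgeR adjusted p = 0.068), short of the threshold. At day 28 the plusFoxp3 libraries held 0 and 0.0207 CPM against 1.95 and 1.96 CPM, and in resting cells no library at any day was above 0.325 CPM, so that the gene did not enter the resting test. Of its 5278 exonic bases, 137 also belong to the antisense gene Gm15241, which reached at most 0.212 CPM, and the counting did not use strand.

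Grk3 (chromosome 5, 113058348 to 113163657, GRCm39), the receptor kinase, was higher in active than in resting cells of both the minusFoxp3 and the plusFoxp3 arm. GFP Treg cells did not show this, with 0.291 to 0.399 CPM in active and 0.271 to 0.475 CPM in resting libraries. Active minusFoxp3 libraries held 10.01 and 12.7 CPM at day 0, 3.10 and 10.2 at day 3, 13.4 and 11.6 at day 7, and 8.85 and 13.1 at day 14. Active plusFoxp3 libraries held 7.44 and 8.26, 7.26 and 4.84, 2.49 and 2.94, and 2.92 and 5.10 CPM on the same days. The day 3 groups overlapped because 1 minusFoxp3 library was low, and the untreated plusFoxp3 libraries were already both below the minusFoxp3 ones. The mean difference over days 3, 7 and 14 was -1.24 (SE 0.25, edgeR adjusted p = 0.011). In a fit of only the libraries compared it fell short of the threshold (edgeR adjusted p = 0.056). At day 28 the values were 0.817 and 0.972 against 10.3 and 11.8 CPM. Resting libraries ranged from 0.338 to 1.10 CPM in minusFoxp3 cells at days 0 to 14 (median 0.443, n = 8) and from 0.271 to 1.07 CPM in plusFoxp3 cells at days 3 to 14 (median 0.352, n = 6), which overlapped (difference -0.22, SE 0.30, edgeR adjusted p = 0.76), as did day 28 with 0.396 and 0.476 against 0.561 and 0.346 CPM. At resting day 7 the plusFoxp3 libraries were the higher ones, at 1.07 and 0.405 against 0.403 and 0.338 CPM, while at resting days 3 and 14 they were the lower ones.

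Rhoj (chromosome 12, 75355096 to 75448230, GRCm39) varied widely among active minusFoxp3 libraries. They held 5.37 and 18.6 CPM at day 0, 26.8 and 14.0 at day 3, 18.9 and 10.6 at day 7, and 13.0 and 9.24 at day 14, against 10.4 and 11.4, 9.61 and 5.65, 6.37 and 8.55, and 6.05 and 6.53 CPM in plusFoxp3 cells. The groups overlapped when untreated and not on the treated days. The difference averaged over days 3, 7 and 14 was -1.04 (SE 0.30, edgeR adjusted p = 0.074), short of the threshold, and it passed in a fit of only the libraries compared (edgeR adjusted p = 0.035). At day 28 the active values were 2.56 and 3.54 against 16.7 and 9.05 CPM. In resting cells the same average was -1.17 (SE 0.38, edgeR adjusted p = 0.13), from 0.135 to 2.21 CPM in plusFoxp3 libraries (median 0.981, n = 6) against 0.971 to 6.76 CPM in minusFoxp3 libraries at days 0 to 14 (median 1.52, n = 8). Resting day 28 values were 0.220 and 0.0827 against 6.17 and 2.84 CPM. Rhoj is known from endothelium, and the endothelial marker Cdh5 was at most 0.798 CPM in active and 0.469 CPM in resting libraries. The whole list of 7 endothelial and stromal markers summed to 60.0 to 95.7 CPM in active minusFoxp3 cells at days 0 to 14 and 69.4 to 108 CPM in active plusFoxp3 cells at days 3 to 14, mostly Pecam1.

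Mtss1 (chromosome 15, 58813083 to 58953854, GRCm39) was expressed in every group and was modestly lower with Foxp3 in active cells, and the difference between states was itself tested. Active minusFoxp3 libraries held 72.0 and 75.8 CPM at day 0, 97.5 and 71.9 at day 3, 82.8 and 77.1 at day 7, and 73.4 and 70.0 at day 14. Active plusFoxp3 libraries held 73.6 and 70.9, 63.7 and 53.6, 60.9 and 58.5, and 41.3 and 48.8 CPM. The groups overlapped when untreated and did not overlap on any treated day. The mean difference over days 3, 7 and 14 was -0.51 (SE 0.09, edgeR adjusted p = 0.0034). In resting cells it was 0.07 (SE 0.11, edgeR adjusted p = 0.78), with 48.8 to 64.3 CPM in minusFoxp3 libraries at days 0 to 14 (median 54.4, n = 8) and 47.5 to 63.0 CPM in plusFoxp3 libraries at days 3 to 14 (median 57.3, n = 6). At day 28 the active values were 28.0 and 33.2 against 63.99 and 71.3 CPM, and the resting ones were 43.1 and 59.9 against 48.5 and 50.9 CPM.

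Pdzrn3 (chromosome 6, 101126570 to 101354858, GRCm39), the ubiquitin ligase, was the gene of the 8 whose active difference changed most from day 3 to day 14. Active minusFoxp3 libraries held 8.16 and 6.53 CPM at day 0, 4.596 and 7.58 at day 3, 9.07 and 11.2 at day 7, and 8.33 and 9.72 at day 14. Active plusFoxp3 libraries held 4.34 and 6.98, 3.04 and 5.91, 1.67 and 1.61, and 1.03 and 0.458 CPM. The groups overlapped at days 0 and 3 and separated from day 7 on, the plusFoxp3 mean being 73.6%, 16.2% and 8.24% of the minusFoxp3 mean at days 3, 7 and 14. The mean difference was -2.19 (SE 0.26, edgeR adjusted p = 1.0e-04), and at day 28 the values were 0.038 and 0.062 against 8.72 and 9.60 CPM. In resting cells the range was 0.734 to 7.75 CPM without Foxp3 (median 3.35, n = 8) and 0.0225 to 1.97 CPM with it (median 1.17, n = 6), a mean difference of -2.06 (SE 0.58) that did not pass the threshold (edgeR adjusted p = 0.077). The untreated resting plusFoxp3 libraries were the higher ones, at 4.74 and 4.81 CPM against 1.11 and 2.26. At resting day 28 the values were 0.639 and 0.393 against 2.10 and 5.45 CPM.

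**Figure D2:**
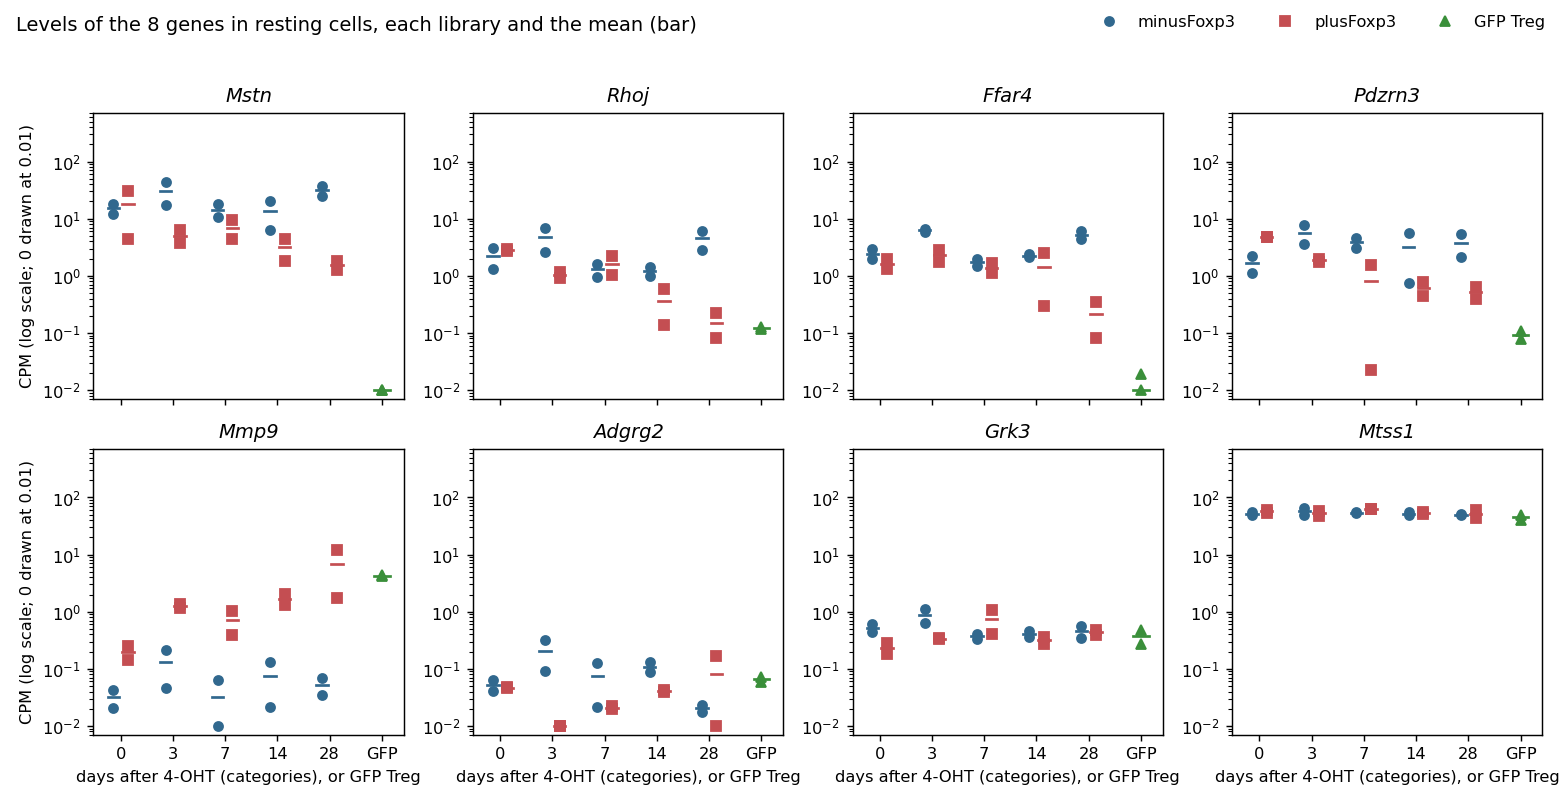
CPM on a log axis for each resting library of the reversible-allele experiment, by day after 4-OHT and in GFP Treg cells, 1 panel per gene, with points for single libraries, bars for means and 0 drawn at 0.01. Mmp9 in plusFoxp3 libraries at days 3 to 14 lies between 0.389 and 2.05, above the minusFoxp3 range of 0 to 0.216, while Mtss1 points of both arms mix.

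Levels can be compared between genes only after dividing by exonic length. In CPM per kilobase, the active minusFoxp3 libraries at days 0 to 14 held a mean of 27.5 of Mstn, 12.2 of Ffar4, 6.84 of Mtss1, 2.25 of Rhoj, 1.76 of Mmp9, 1.19 of Grk3, 1.12 of Pdzrn3 and 0.470 of Adgrg2 (n = 8). In active GFP Treg cells the order was led by Mmp9 at 18.1 and Mtss1 at 1.75 CPM per kilobase, and the other 6 genes were at 0.125 or less (n = 2). Neighbours in these orders such as Grk3 and Pdzrn3, with SDs of 0.387 and 0.277 CPM per kilobase, differed by less than their spread.

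Day by day, tests in active cells passed for few of the 8 genes early and for more later, and the untreated cells were tested the same way. At day 0, 0 of 8 genes passed, against 0.00481% of all genes tested, with 2 at an unadjusted p under 0.05 and 0 by DESeq2. At day 3, 0 of 8 passed against 0.274% of all genes, with 5 at an unadjusted p under 0.05 and 1 by DESeq2. At day 7, 3 of 8 passed (Pdzrn3 and Grk3 lower, Mmp9 higher) against 0.568%, and at day 14, 3 of 8 (Mstn and Pdzrn3 lower, Mmp9 higher) against 0.732%. At day 7 the count was 0 in a fit of only the libraries compared, and 0 to 5 when 1 library was left out.

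Counting genes whose 2 libraries of each arm did not overlap gave more genes at days 7 and 14 than before in active cells, with a high background because 2 libraries stand against 2. At day 0, 4 of 8 genes (Ffar4, Mmp9, Adgrg2 and Grk3) did not overlap, all lower in plusFoxp3 mice, against 30.3% of all genes. The numbers were 5 of 8 at day 3 against 34.9%, 8 of 8 at day 7 against 38.8% and 8 of 8 at day 14 against 44%. At active days 7 and 14, 7 genes were lower and Mmp9 was higher in every pair of libraries. Resting cells gave mixed directions among the 7 genes tested. At resting day 0, 4 of 7 did not overlap against 31.5% of all genes (Ffar4 and Grk3 lower, Pdzrn3 and Mmp9 higher), and at day 3, 6 of 7 did not against 51.5%, 5 lower and Mmp9 higher. At resting day 7, 5 of 7 did not overlap against 31.2%, with Mstn and Pdzrn3 lower and Mmp9, Grk3 and Mtss1 higher, Mtss1 at 63.0 and 61.6 against 54.9 and 54.1 CPM. At resting day 14 it was 4 of 7 against 40.8%, with Mstn, Rhoj and Grk3 lower and Mmp9 higher.

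**Figure D3:**
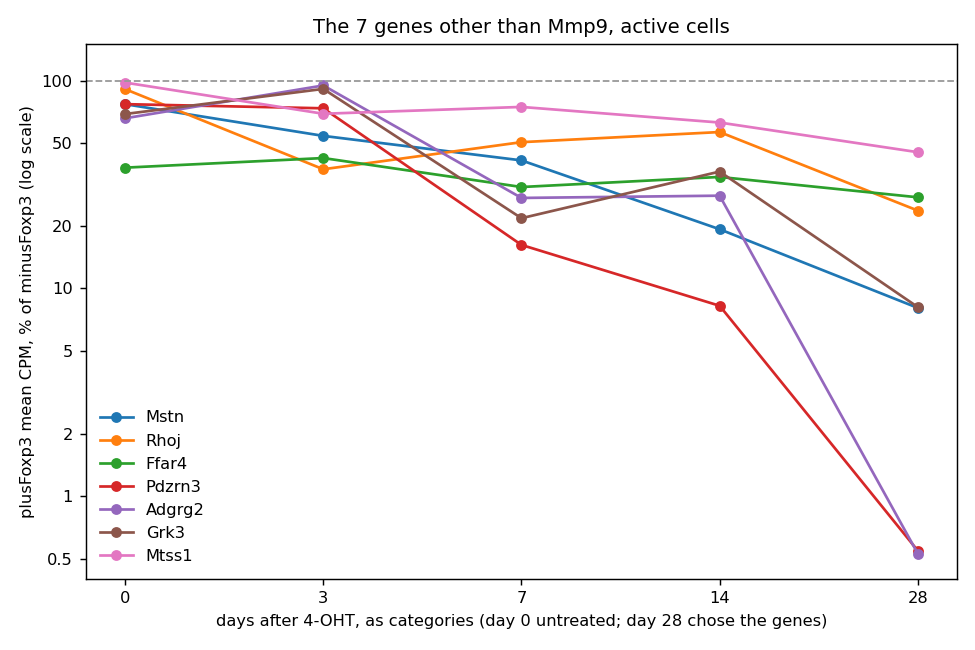
Mean CPM of active plusFoxp3 cells as a percentage of the mean of active minusFoxp3 cells of the same day, on a log axis, by day after 4-OHT, with 1 line for each of the 7 genes other than Mmp9 and 2 libraries behind each mean. Mstn lies at 54.2%, 41.3% and 19.2% and Pdzrn3 at 73.6%, 16.2% and 8.24% at days 3, 7 and 14.

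Averaged over days 3, 7 and 14 (6 against 6 active libraries), 6 of 8 genes passed, against 3.18% of all genes tested, 5 of them lower and 1 higher, and the median difference of the 8 was -1.23 against 0.00 for all genes. In resting cells, 2 of the 7 genes tested passed (Mstn lower, Mmp9 higher), against 2.48% of all genes, with a median of -0.79 against -0.03 for all genes. DESeq2 passed 8 of 8 genes in active cells against 5.50% of all genes, and 4 of 7 in resting cells against 5.36%. Resting tests on single days passed 0 of 7 genes at day 0 against 0.00487% of all genes, at day 3 against 0.0487%, at day 7 against 0.0585% and at day 14 against 0.268%. The genes at an unadjusted p under 0.05 were 1, 4, 2 and 4 of 7 on those days, and DESeq2 passed 0, 1, 1 and 1.

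**Figure D4:**
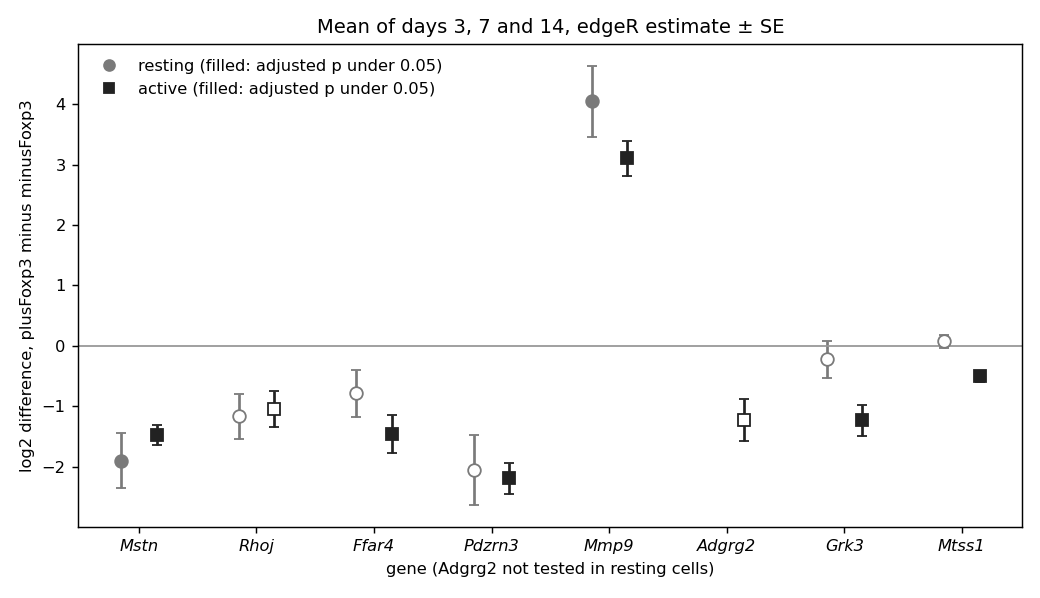
Difference of plusFoxp3 minus minusFoxp3 cells in log2, averaged over days 3, 7 and 14, for each gene in active and resting cells, with bars of 1 SE from the edgeR fit and filled points for an adjusted p under 0.05. Mmp9 lies at 3.11 in active and 4.05 in resting cells, the other 7 genes lie below 0 in active cells, and Mtss1 differs between the states at -0.51 and 0.07.

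Only Pdzrn3 passed a test of whether the active difference changed from day 3 to day 14, 1 of 8 against 0.226% of all genes, with a change of -3.22 (SE 0.63, edgeR adjusted p = 0.046). It lost the call in 7 of 8 fits that each left out 1 library (adjusted p from 0.021 to 0.28). The change of Mstn was -1.54 (SE 0.39, edgeR adjusted p = 0.17). In resting cells 0 of 7 genes passed this test against 0% of all genes, with 0 at an unadjusted p under 0.05 and 0 by DESeq2.

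Cells without functional Foxp3 did not show a detectable drift in these genes with 4-OHT and time. MinusFoxp3 cells averaged over days 3, 7 and 14 against day 0 gave 0 of 8 genes in active cells against 0% of all genes, with 1 at an unadjusted p under 0.05 (Mmp9, -1.02, SE 0.37) and 0 by DESeq2. In resting cells 0 of 7 passed against 0%, with 0 at an unadjusted p under 0.05 and 0 by DESeq2.

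The CD8 and NK markers moved with the active arms. Their 5 genes (Cd8a, Cd8b1, Klrb1c, Ncr1 and Klrk1) summed to 22.3 to 54.9 CPM in active minusFoxp3 cells at days 0 to 14, to 13.6 to 16.3 CPM in active plusFoxp3 cells at days 3 to 14, and to 46.9 and 71.7 CPM in untreated active plusFoxp3 cells. Cd8a was at most 2.19 CPM and Ncr1 at most 0.138 CPM in the active libraries, and Ncr1 was at 0 in some. In resting cells the sums overlapped, at 24.6 to 38.0 and 27.4 to 33.4 CPM. The markers of cell state moved as well. The 5 active-state markers (Cd44, Icos, Itgae, Klrg1 and Maf) summed to 1798 to 2853 CPM in active plusFoxp3 cells at days 3 to 14 and to 1431 to 2450 CPM in active minusFoxp3 cells at days 0 to 14, and at day 14 they did not overlap, at 2651 to 2853 against 1638 to 1660 CPM. Ccr7, Tcf7 and Bach2 summed to 597.38 to 653.93 CPM against 1201 to 1419 CPM at active day 14. The part of these markers in the results of the active genes was not tested.

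GFP Treg cells, compared with untreated minusFoxp3 cells, lay beyond the restored cells for most of the genes. In active cells all 8 genes passed, 7 lower and Mmp9 higher, against 10% of all genes tested. The ratio of untreated minusFoxp3 to GFP Treg cells was 3614 for Mstn (95% exact Poisson interval 1000 to 29843 on 2 counts), 106 for Ffar4, 82.3 for Pdzrn3, 54.8 for Rhoj, 41.5 for Adgrg2, 32.7 for Grk3 and 3.73 for Mtss1. Of the B cell markers, Cd79b, a part of the B cell receptor complex, reached 41.2 CPM in active GFP Treg and 22.8 CPM in untreated active minusFoxp3 cells, and Ms4a1 was at 1.43 CPM or less in active libraries. The 5 markers of double-positive thymocytes summed to 83.0 to 87.5 against 31.9 to 33.0 CPM, mostly Cd1d1, with Rag1 at 0.395 CPM or less and Rag2 at 0 in some active libraries. Their part in the result was not tested. Mmp9 held 51.8 and 76.1 CPM in active GFP Treg cells, a difference of 2.71 (SE 0.48, edgeR adjusted p = 0.0013). In resting cells 4 of 7 genes passed against 2.91%, with Mstn, Rhoj and Ffar4 lower and Mmp9 higher at 4.20 and 4.30 CPM. Rhoj lost that call in 2 of 4 fits that left out 1 library (adjusted p from 0.0082 to 0.077).

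At day 14 the restored cells were still far from GFP Treg cells for the genes that were lower. GFP Treg minus plusFoxp3 cells at day 14 passed for 7 of 8 genes in active cells, all lower, against 4.87% of all genes, and for 2 of 7 in resting cells (Mstn and Ffar4) against 0.166%. Active GFP Treg cells held 898-fold less Mstn (interval 248 to 7412 on 2 counts), 36.3-fold less Ffar4, 28.8-fold less Rhoj and 8.33-fold less Pdzrn3 than plusFoxp3 cells at day 14. Mmp9 did not pass (-0.54, SE 0.45, edgeR adjusted p = 0.63), with the day 14 libraries at 74.8 and 112 CPM. This comparison shares its day 14 libraries with the averages over days and its GFP Treg libraries with the comparison to untreated cells. The resting count was 0 in a fit of only the libraries compared and 0 to 2 when 1 library was left out. Adgrg2 lost its active call in all 4 fits that left out 1 library (adjusted p from 0.055 to 0.19). GFP Treg cells came from other mice, so genotype and treatment cannot be told apart from Foxp3 history there.

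Where Foxp3 was missing, most of the genes were higher in the active state. In untreated minusFoxp3 cells, 7 of 8 genes were higher in active than in resting cells, against 13.4% of all genes tested, with differences from 0.50 for Mtss1 to 8.18 for Mmp9. The genes were picked in part for state-dependent differences at day 28, so this count partly follows from the choice. Adgrg2 entered this test through its active libraries only, because its resting counts were too low for the resting test. Mtss1 lost this call in all 4 fits that left out 1 library, and Mstn, Rhoj and Ffar4 lost it in some of them. Such fits leave 1 library in a group. Their differences ran from 0.45 to 0.55 for Mtss1 and from 1.98 to 2.56 for Mstn. For Rhoj they ran from 1.27 to 3.19 and for Ffar4 from 2.52 to 3.18. Pdzrn3 was 2.11 higher (SE 0.80, edgeR adjusted p = 0.083), short of the threshold. In GFP Treg cells 2 of 8 passed against 3.12%, with Mmp9 higher by 3.89 (SE 0.63, edgeR adjusted p = 5.8e-04) and Mtss1 lower, at -1.20 (SE 0.17, edgeR adjusted p = 9.0e-05), in active cells. Mtss1 thus stood higher in active cells without Foxp3 and lower in active cells of GFP Treg mice, at 19.3 and 20.4 against 40.8 and 49.3 CPM.

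The difference between plusFoxp3 and minusFoxp3 cells, averaged over days 3, 7 and 14, differed between states for 1 of 8 genes against 0.462% of all genes tested. That gene was Mtss1, at -0.60 (SE 0.13, edgeR adjusted p = 0.040), and its call was lost in 17 of 24 fits that each left out 1 library (adjusted p from 0.023 to 0.11). Grk3, at -1.03 (SE 0.38, edgeR adjusted p = 0.30), and Mmp9, at -0.95 (SE 0.73, edgeR adjusted p = 0.79), did not pass.

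In the adult degron libraries the file attached to a record and the library name in its header name opposite genotypes, and the header was followed here. Under the recorded attachment every sign turns over. In active Treg cells 0 of 7 genes tested passed against 0% of all genes, with 2 at an unadjusted p under 0.05 and 0 by DESeq2. Mstn held 7.93, 14.1 and 7.97 CPM in TIR1 and 2.63, 0.714 and 3.28 CPM in WT libraries, which did not overlap (2.14, SE 0.60, edgeR adjusted p = 1.0, and -2.14 under the recorded attachment). Mmp9 held 19.4, 6.45 and 1.93 CPM against 37.0, 30.6 and 30.4 CPM, which did not overlap either (-1.85, SE 0.67, edgeR adjusted p = 1.0, and 1.85 under the recorded attachment). These were the only 2 of the 7 genes whose libraries did not overlap, against 10.1% of all genes. Foxp3 mRNA held 83.4, 93.4 and 76.7 CPM in TIR1 and 100, 104 and 127 CPM in WT libraries.

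The other genes overlapped between TIR1 and WT in active degron cells. Ffar4 held 29.5, 13.5 and 36.9 CPM in TIR1 and 8.86, 22.2 and 24.7 CPM in WT libraries, Rhoj 10.7, 10.1 and 5.64 against 1.44, 15.3 and 18.1, and Mtss1 29.8, 27.6 and 28.7 against 31.2, 21.5 and 24.9. All 6 libraries, WT ones with Foxp3 included, thus held more Ffar4 and Rhoj than active GFP Treg cells. The latter had at most 0.312 CPM of Ffar4 and 0.323 CPM of Rhoj. Mstn was also higher in all 6 libraries, at 0.714 CPM or more against at most 0.0416 CPM in active GFP Treg cells. Mtss1 was narrowly so, at 21.5 CPM or more against at most 20.4 CPM. The 2 experiments were counted with different settings, and the reason was not tested. Pdzrn3 and Grk3 were at or below 4.66 CPM and at 0 in some libraries, and Adgrg2 had 0 counts in all 12 adult degron libraries. In the thymus only Mtss1 was tested, at 31.9, 21.8 and 20.2 CPM in TIR1 and 23.8, 25.9 and 36.4 CPM in WT libraries. It was 0 of 1 that passed against 0% of all genes, with 0 at an unadjusted p under 0.05 and 0 by DESeq2, and 0 of 1 that did not overlap against 13.0%.

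**Figure D5:**
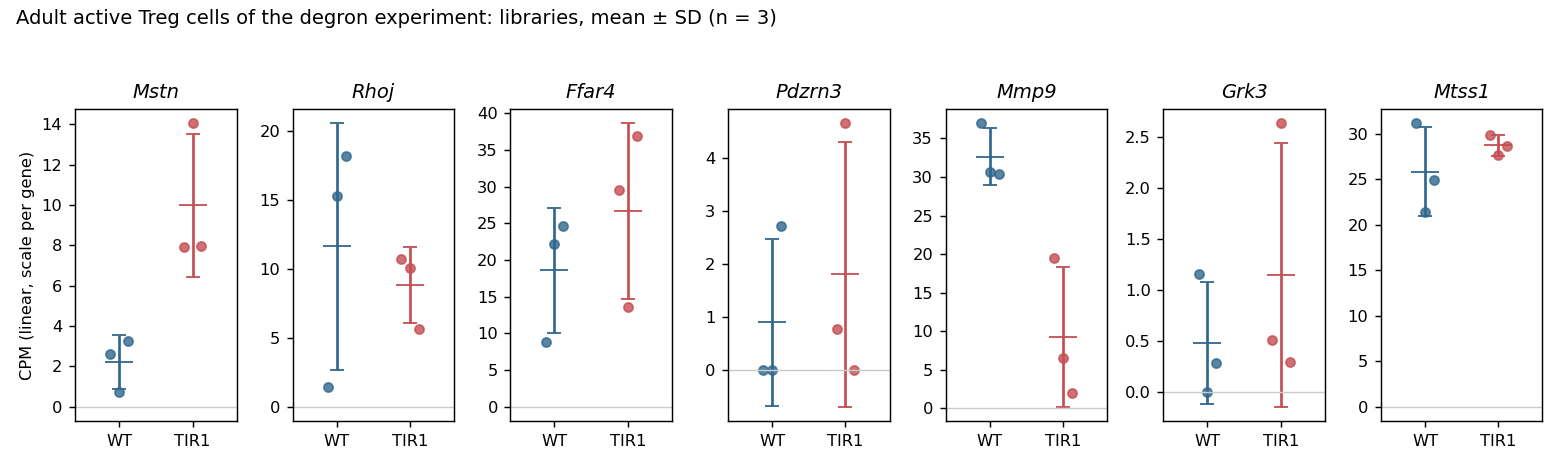
CPM on a linear axis of its own for each of 7 genes in active adult degron Treg cells, with 3 points and the mean ± SD for each of TIR1 and WT, grouped by the name that the header gives. Mstn points of TIR1 (7.93 to 14.1) lie above those of WT (0.714 to 3.28), Mmp9 points of TIR1 (1.93 to 19.4) lie below those of WT (30.4 to 37.0), and the other genes overlap.

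In infant Treg cells the titles and the genotype field name opposite genotypes, so the direction is not settled and the groups are named by title. Of 3 genes tested (Mmp9, Grk3 and Mtss1), 0 passed against 0.0185% of all genes, with 0 at an unadjusted p under 0.05 and 0 by DESeq2, and 0 of 3 did not overlap against 8.73%. Grk3 held 0.623, 1.21, 1.51 and 0.747 CPM in libraries titled TIR1 and 0, 0, 0 and 0.645 CPM in those titled WT. Without the last of these libraries, WT replicate 4, the comparison was with 3 libraries at 0 counts and passed (edgeR adjusted p = 4.3e-04), and 1774 genes passed in all, against 3 with that library. Mmp9 held 0.297, 0.607, 1.68 and 1.25 against 0.891, 0.237, 0 and 0.0717 CPM, and Mtss1 ranged from 24.5 to 49.2 CPM over the 8 libraries.

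Genes related by function were read from lists of partners of the 8 genes. In the myostatin pathway list, 15 of 18 genes were tested in active cells over days 3, 7 and 14, and 1 was lower (Fst) and 1 was higher (Smad3), against 3.18% of all genes, with a median of -0.14 against 0.00 for all genes. Follistatin (Fst), which binds and blocks myostatin, ranged from 0.159 to 1.46 CPM in active plusFoxp3 libraries at days 3 to 14 and from 4.10 to 8.86 CPM in active minusFoxp3 libraries of those days, a difference of -2.94 (SE 0.43, edgeR adjusted p = 7.8e-04). In resting cells it was -3.22 (SE 0.46, edgeR adjusted p = 0.0012), with 0.064 to 1.32 against 1.27 to 9.46 CPM, and it was the only one of 15 that passed, against 2.48% of all genes, with a list median of -0.21 against -0.03. Smad3, which carries the TGF-beta family signal to the nucleus, was higher in active cells by 0.49 (SE 0.12, edgeR adjusted p = 0.033). Ligand and inhibitor, Mstn and Fst, were thus both lower in cells with Foxp3.

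In the list of small GTPases related to Rhoj and their effectors, 2 of 11 genes tested in active cells over the same days were higher and 0 were lower, against 3.18% of all genes, with a median of 0.21 against 0.00 for all genes. They were Rhoh, a GTPase-deficient small G protein of blood cells, by 0.52 (SE 0.10, edgeR adjusted p = 0.0095), and Rhof by 0.49 (SE 0.10, edgeR adjusted p = 0.014). In resting cells 0 of 10 passed against 2.48%. Of the adhesion receptors, 1 of 8 passed in resting cells (Adgrb3, -1.05, SE 0.18, edgeR adjusted p = 0.0053) against 2.48%, and 0 of 8 in active cells against 3.18%. In the lists of metalloproteinases and inhibitors (8 tested), GPCR kinases (4), fatty acid receptors and arrestins (4 in active, 3 in resting cells), PDZ RING ligases with Dishevelled (5) and I-BAR proteins (6), 0 passed in either state by edgeR over days 3, 7 and 14.

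Active GFP Treg cells against untreated minusFoxp3 cells passed for more genes of these lists, with 10% of all genes passing. They were 5 of 15 in the myostatin pathway (Fst, Furin and Acvr2a lower, Tgfbr1 and Smad3 higher), 3 of 11 small GTPases and effectors (Rhoh, Rhof and Was, all higher), 3 of 4 fatty acid receptors and arrestins (Ffar2, Ffar3 and Arrb1, all lower), 3 of 8 metalloproteinases and inhibitors (Timp2 and Mmp25 lower, Mmp15 higher) and 1 of 8 adhesion receptors (Adgrg5, lower). Ffar2, a receptor for short-chain fatty acids, held 0.437 and 0.627 CPM in active GFP Treg cells and 13.0 to 39.7 CPM in active minusFoxp3 libraries at days 0 to 14 (-5.84, SE 0.53, edgeR adjusted p = 1.5e-06). Timp2, an inhibitor of metalloproteinases, held 300.59 and 400.32 against 999 to 1273 CPM (-1.73, SE 0.17, edgeR adjusted p = 3.2e-06). Ffar3 had 0 counts in both active GFP Treg libraries and at most 1.28 CPM in active minusFoxp3 libraries. In resting cells the same comparison passed for Fst (lower), Rhoh and Was (higher) and Reck (higher), against 2.91% of all genes.

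Over the 18 group means of the reversible-allele experiment without day 28, the genes with the most similar log2 levels were named for each gene out of 14290 searched. The points share libraries and cell states, and r is a description. For Mstn they were Sntg2 (r = 0.968), Ccl20 and Tnfsf8, for Ffar4 Ccl20 (0.984), Sntg2 and Ocln, and for Rhoj Trp53i13 (0.975), Fam20a and Dlg2. For Pdzrn3 they were Tst (0.947), Klrd1 and 1700019D03Rik, for Mmp9 Acsf2 (0.971), Mrgpre and Tmem154, and for Adgrg2 Pros1 (0.973), Dynlt5 and Ldlrad4. For Grk3 they were D16Ertd472e (0.986), Gng2 and Tsg101-ps, and for Mtss1 Sfxn3 (0.937), Rexo2 and Macroh2a1. Ccl20, a chemokine that is like both Mstn and Ffar4, ranged from 487 to 1195 CPM in active minusFoxp3 libraries at days 0 to 14, from 259.70 to 426.58 CPM in active plusFoxp3 libraries at days 3 to 14, and from 1.62 to 4.84 CPM in active GFP Treg cells.

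Among the 8 active minusFoxp3 libraries at days 0 to 14, the 28 pairs of genes were compared by Pearson and Spearman correlation, and 0 pairs passed after Benjamini-Hochberg adjustment of exact permutation tests. The smallest p was that of Ffar4 and Pdzrn3, with r = -0.76 (exact permutation p = 0.019, adjusted p = 0.34), rho = -0.62 (exact permutation p = 0.11, adjusted p = 0.64) and r = -0.25 without the 2 libraries farthest from the median.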

How the data were processed

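PolyA RNA of sorted cells was sequenced in 64 mouse libraries. The authors deposited raw counts of read pairs per gene name, made per the file headers with featureCounts 2.0.3 on GENCODE vM30 names (GRCm39), without strand. The submitters' processing notes name Bowtie2 and DESeq2, and the study's methods name STAR. The degron headers kept only primary, non-chimeric pairs with a mapping quality of at least 30 and the other headers do not, so groups were compared within one counting setting. All per-sample columns given were used.

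Counts were scaled to CPM of the library total (totals of 27753211 to 57419138). The main test was edgeR 4.0.16 (quasi-likelihood, TMM, robust) in R 4.3.3, on genes averaging 10 counts or more, with Benjamini-Hochberg adjustment over all genes tested and a threshold of 0.05. Each state of the reversible-allele experiment was fitted over its 22 libraries, state comparisons over all 44, and each degron set on its own. The reversible-allele fits held the day 28 libraries, which thus entered the count filter and the spread of the tests on other days. Genes tested numbered 20520 in resting, 20776 in active and 20790 in all reversible-allele libraries, and 14245, 14554 and 16209 in thymic, active and infant degron libraries. Alternatives were DESeq2 1.42.0, RLE size factors, no count filter, only the libraries compared, a replicate block, leaving out each library, and the recorded file attachment. For the 12 adult degron files, the header's library name decided the group.

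The genes and the related and marker lists were chosen with earlier results of these data known. Named were the 8 genes, Foxp3, the 3 most similar genes to each (Pearson r of log2 CPM over 18 group means, prior count 2, mean of at least 50 counts) and up to 3 genes passing in each related list. Replicate libraries were not duplicates (chi-square of at least 15.8 per gene in 46 pairs). Some marker genes are not reported here.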

Additional observations from a re-analysis of the deposited data

Results flagged for a closer look

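Grk3 in infant libraries titled WT stood out because 1 of 4 libraries, replicate 4 at 0.645 CPM, lay apart from the other 3, which had 0 counts. The gap was the whole range of the group. In all, 6 groups of 4 libraries were checked for such a gap, with a limit meant to mark a share of about 0.05 of groups by chance. Here 3 libraries had 0 counts, so any count in the other gives this gap and that share does not apply. The 5 active-state markers summed to 590 CPM in replicate 4 and to 197 to 263 CPM in the other libraries titled WT. Those titled TIR1 had 537 to 742 CPM. The part of these markers in the Grk3 value was not tested.

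The plusFoxp3 minus minusFoxp3 difference of Mtss1 averaged over days 3, 7 and 14 differed between states by -0.60 on the log2 scale (edgeR adjusted p = 0.040), at -0.51 in active and 0.07 in resting cells. This call was lost in most fits that left out 1 library and in the fit of only the libraries compared.

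The active difference of Pdzrn3 changed by -3.22 on the log2 scale from day 3 to day 14 (edgeR adjusted p = 0.046).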

How the results depend on the processing

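Counts of the 8 genes that passed moved with the settings as follows. With DESeq2 they were 1 at resting days 3, 7 and 14, 4 for the resting average, 1, 5 and 5 at active days 3, 7 and 14, and 2 for the active change from day 3 to day 14. Without the count filter they were 3, 2 and 3 at resting days 3, 7 and 14, 5 for the resting average, 2, 2, 5 and 5 at active days 0, 3, 7 and 14, 3 for the change, 1 for the active drift and 0 for the difference between states. In fits of only the libraries compared, they were 0 for resting GFP Treg minus plusFoxp3 day 14, active day 7, the active change and the difference between states. Leaving out 1 library gave 1 to 3 for the resting average, 0 to 2 for resting GFP Treg minus day 14, 0 to 5 for active day 7, 0 to 1 for the change, 4 to 6 for active minus resting untreated cells, 0 to 1 for the difference between states and 0 to 1 in infants. The causes were not tested.

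Same-numbered libraries did not deviate together throughout (r from -0.07 to 0.51 in 110 resting and from -0.23 to 0.52 in 110 active pairs, medians 0.13 and 0.04), so the main fits did not pair the libraries. In resting cells 60 of the 110 pairs were above r = 0.1, and with 2 libraries per group this check cannot decide whether a partial pairing exists. With the replicate block, the resting GFP Treg minus day 14 count was 1 and the active change count was 0, and no other count moved by over 1.5 times.

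Under the recorded attachment the active degron differences were 1.85 for Mmp9 and -2.14 for Mstn. Calls lost when 1 library was left out include those of Ffar4 in the active average (4 of 12 fits), Adgrg2 in active GFP Treg minus day 14 (4 of 4) and Mtss1 in active minus resting untreated cells (4 of 4). Having 2 libraries per group limits the single-day tests, and resting Adgrg2 and Mmp9 lie near 3 counts without Foxp3.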
